A study of Mus musculus with 37 samples.

Results

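The GFP-bound fractions of midbrain dopamine neurons and GABA neurons also carried RNA of genes that are best known from astrocytes. A set of 35 astrocyte genes, out of 57180 genes counted, was followed here through every library. The members were chosen by gene symbol from textbook knowledge of astrocytes, with earlier results of these data known. Each symbol matched exactly 1 row of both count tables. All 35 had enough counts to be tested in every comparison.

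Fractions came from 19 DAT;NuTRAP mice (labelled Dopaminergic_neuron) and 18 VGAT;NuTRAP mice (labelled GABAergic_neuron), 1 library per mouse. All mice carried the NuTRAP allele, in which a floxed stop before a GFP-tagged ribosomal protein L10a sits in Rosa26, so the tag appears where Cre has acted. Cre was driven by the Slc6a3 locus (DAT, the dopamine transporter) or by the Slc32a1 locus (VGAT, the vesicular GABA transporter). Both lines were otherwise untreated and aged naturally, and the ventral midbrain was dissected from acute slices. The DAT;NuTRAP mice were 10 young (5 females and 5 males, 8 to 10.5 months) and 9 old (4 females and 5 males, 21 months). The VGAT;NuTRAP mice were 10 young (6 females and 4 males, 7 to 9 months) and 8 old (5 females and 3 males, 21 months in all but 1 mouse of 24 months). The labels also placed each library in a first or second batch, with 8 and 11 DAT;NuTRAP libraries and 6 and 12 VGAT;NuTRAP libraries.

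Astrocytes clear glutamate and glycine from synapses, convert glutamate to glutamine, buffer potassium and water, and are joined to each other by connexin gap junctions. They supply lipids and secreted proteins to neurons and wrap synapses and blood vessels. With age and injury they tend to raise the intermediate filament Gfap and some secreted proteins, a state called reactive. Neither Cre line targets astrocytes. In bulk fractions of this kind, fewer cells of a type and less RNA per cell cannot be told apart. The input fractions were not analysed here.

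The libraries held 13841253 to 38235015 counts. The dopamine labels Slc6a3, Th, Ddc and Slc18a2 summed to a median of 12198 CPM (counts scaled to library size) in DAT;NuTRAP and 1906 CPM in VGAT;NuTRAP, and the GABA labels Slc32a1, Gad1 and Gad2 to 356 and 3590 CPM, so both lines held their defining markers. A ribosomal RNA row, Rn18s-rs5, took 7.01% of counts in DAT;NuTRAP young female 3 and 6.64% in old male 5, and at most 1.68% elsewhere. The first-batch DAT;NuTRAP libraries detected 19085 to 21051 genes and the second-batch ones 14323 to 18170.

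The 35 genes together took a median of 0.395% of the counts of a DAT;NuTRAP library (0.267% to 0.594%) and 0.280% of a VGAT;NuTRAP library (0.254% to 0.345%). Their summed level was 2719 to 5783 CPM in DAT;NuTRAP libraries and 2521 to 3333 CPM in VGAT;NuTRAP libraries. The 17 members that are largely restricted to astrocytes in adult brain summed to only 262 to 823 CPM and 106 to 331 CPM. Levels between genes were compared as RPKM, which is CPM divided by the exon length in kilobases. In DAT;NuTRAP the highest was Cst3, the secreted protease inhibitor cystatin C, at 311 ± 70.9 RPKM (SD, n = 19). Next came Glul, glutamine synthetase, at 100.2 ± 31.4 RPKM and Sparcl1, a secreted synapse-organising protein that some neurons also make, at 83.6 ± 18.1 RPKM, which did not differ beyond their spread. The chaperone Clu was at 79.2 ± 9.92 RPKM, and the glutamate transporter Slc1a2 at 45.3 ± 18.1 RPKM. Gfap, the astrocyte filament protein, ranked 9th at 19.0 ± 12.2 RPKM. The lowest were the transcription factor Sox9 at 1.32 RPKM, the cystine exchanger Slc7a11 at 0.505 RPKM and the serine transporter Slc7a10 at 0.489 RPKM.

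In VGAT;NuTRAP the order was led by Sparcl1 at 162 ± 27.3 RPKM (SD, n = 18), with Cst3 at 110 ± 15.2 RPKM and Clu at 53.2 ± 4.54 RPKM behind it. Gfap ranked 9th here too, at 6.78 ± 3.73 RPKM. Serpina3n, a secreted serine protease inhibitor, moved from rank 28 in DAT;NuTRAP (2.98 RPKM) to rank 10 in VGAT;NuTRAP (4.92 RPKM). The glycine transporter Slc6a9 moved from rank 22 to rank 12 with nearly the same level, 3.57 and 3.26 RPKM. Slc7a10 and Slc7a11 closed the order in both.

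**Figure D1:**
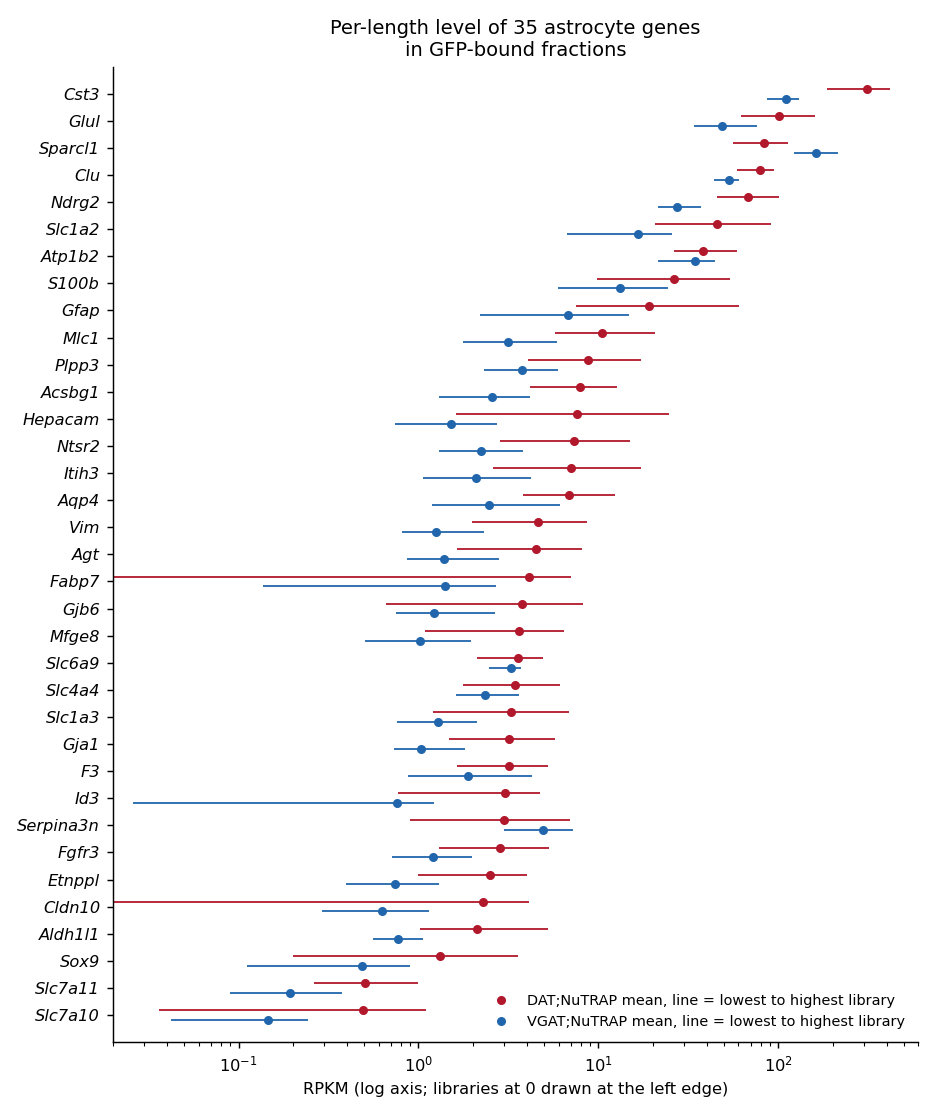
Per-length level of the 35 astrocyte genes, one row per gene, on a log axis of RPKM. Points are means over 19 DAT;NuTRAP (red) and 18 VGAT;NuTRAP (blue) libraries and lines run from the lowest to the highest library; Sparcl1 and Serpina3n are the only rows whose blue mean lies to the right of the red mean.

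The genes differed in how much they varied among libraries. The coefficient of variation of CPM across the DAT;NuTRAP libraries ran from 12.5% for Clu to 75.3% for Hepacam, an adhesion protein of astrocyte endfeet, with a median of 40.1%. Across the VGAT;NuTRAP libraries it ran from 8.54% for Clu to 55.0% for Gfap, with a median of 32.3%. Clu and Sparcl1 were among the steadiest members in both, and Sparcl1 alone made up 42.6% of the summed level of the set in VGAT;NuTRAP, against 15.2% in DAT;NuTRAP.

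The lines were compared next, to ask how the levels of these genes differed between the pulldowns. Which cells the reads came from was not tested. Of the 35 members, 32 fell and 2 rose in VGAT;NuTRAP against DAT;NuTRAP at an adjusted p below 0.05 (edgeR quasi-likelihood test with Benjamini-Hochberg adjustment over 16898 genes, with batch and age as terms), where 30.1% of all genes tested fell and 30.4% rose. The median log2 fold change of the members was -1.49, that of all genes tested was -0.01, and 2 members lay above 0 where 49.4% of all genes did. All 17 members that are largely restricted to astrocytes in adult brain fell, with values from -1.81 to -0.77. The line of mice and the neuron type cannot be told apart in this comparison.

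Among the secreted proteins the members went both ways. Cst3 ranged from 335 to 750 CPM in DAT;NuTRAP and from 156 to 236 CPM in VGAT;NuTRAP, and the groups did not overlap. Its log2 fold change was -1.49 ± 0.08 (SE, adjusted p = 1.34e-18). Sparcl1 ranged from 419 to 842 CPM in DAT;NuTRAP and from 913 to 1597 CPM in VGAT;NuTRAP, again without overlap but in the other direction, and rose by 0.99 ± 0.07 (adjusted p = 2.09e-15). Serpina3n averaged 11.6 ± 6.71 CPM in DAT;NuTRAP and 19.2 ± 4.44 CPM in VGAT;NuTRAP, with overlapping libraries. It rose by 0.82 ± 0.18 (adjusted p = 0.000109), and that call was lost in old libraries alone (0.32, adjusted p = 0.228) and in first-batch libraries alone (0.30 ± 0.29, adjusted p = 0.432). The milk-fat-globule protein Mfge8 (-1.78 ± 0.16), the hyaluronan-binding inhibitor Itih3 (-1.71 ± 0.18), angiotensinogen (Agt, -1.67 ± 0.13), tissue factor (F3, -0.77 ± 0.15) and Clu (-0.58 ± 0.05) all fell. Groups that did not overlap made up 3.37% of all genes on the lower side and 4.99% on the higher side, and among the members 3 were lower in this way (Cst3, Acsbg1 and Ndrg2) and 1 was higher (Sparcl1).

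All 8 water, ion, junction and contact proteins fell. Hepacam gave the steepest value of the set, -2.17 ± 0.18 (adjusted p = 2.14e-13), from 37.5 ± 28.3 CPM to 7.52 ± 2.44 CPM. It was the steepest in second-batch libraries (-2.64 ± 0.19) and not in first-batch ones (-1.26 ± 0.18), where Id3 was at -2.16 ± 0.54 and Slc7a11 at -1.74 ± 0.30. The tight junction protein Cldn10 (-1.81 ± 0.28), the endfoot membrane protein Mlc1 (-1.72 ± 0.13), connexin 43 (Gja1, -1.60 ± 0.12), connexin 30 (Gjb6, -1.59 ± 0.22) and the water channel Aqp4 (-1.51 ± 0.15) lay close together. The bicarbonate transporter Slc4a4 fell less, by 0.55 on the log2 scale, and the sodium pump subunit Atp1b2 gave -0.19 ± 0.07 (adjusted p = 0.0106). The Atp1b2 call did not hold in first-batch libraries alone (-0.20, adjusted p = 0.0568) or second-batch libraries alone (-0.17, adjusted p = 0.140).

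Of 7 transporters and enzymes of transmitter and amino acid handling, 6 fell. Slc1a2 averaged 634 ± 254 CPM in DAT;NuTRAP and 231 ± 79.9 CPM in VGAT;NuTRAP, a log2 fold change of -1.54 ± 0.09 (adjusted p = 1.73e-18). The phospholyase Etnppl (-1.72 ± 0.15), Slc7a10 (-1.72 ± 0.25), the glutamate transporter Slc1a3 (-1.34 ± 0.13) and Glul (-1.04 ± 0.09) fell as well. Slc6a9 did not pass, at -0.10 ± 0.08 (adjusted p = 0.320), with a 95% interval of -0.26 to 0.07. The filament Vim (-1.89 ± 0.16), Gfap (-1.41 ± 0.18), the folate enzyme Aldh1l1 (-1.40 ± 0.14) and the calcium-binding protein S100b (-0.96 ± 0.22) fell, as did the transcriptional inhibitor Id3 (-2.03 ± 0.26), the acyl-CoA synthetase Acsbg1 (-1.61 ± 0.12), the fatty acid carrier Fabp7 (-1.57 ± 0.32), the receptors Ntsr2 (-1.67 ± 0.14) and Fgfr3 (-1.22 ± 0.14), Sox9 (-1.48 ± 0.21) and Ndrg2 (-1.29 ± 0.09).

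Within single batches the gap between the lines was of unequal size. In first-batch libraries 32 of 35 members lay below 0 with a median of -1.02, and in second-batch libraries 32 lay below 0 with a median of -1.65. S100b turned its sign, at 0.31 ± 0.19 (adjusted p = 0.223) in first-batch libraries and -1.68 ± 0.19 (adjusted p = 5.61e-08) in second-batch libraries.

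Markers of oligodendrocytes and of vessel cells moved in the same direction. Of 12 oligodendrocyte markers 11 fell in VGAT;NuTRAP (median -1.44, summed level 1325 CPM in DAT;NuTRAP and 419 CPM in VGAT;NuTRAP as medians), while Ugt8a rose. Of 10 endothelial markers 9 fell (median -1.53, 202 and 85.5 CPM), and all 6 mural and fibroblast markers fell (median -1.85, 65.9 and 15.5 CPM). The list of 14 microglia markers had a median of -0.02 for the same difference. Their part in the values of the astrocyte genes was not tested.

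Old and young mice were compared within each line, to see whether the levels of these genes in the pulldown shifted with age. In DAT;NuTRAP all 35 members had a log2 fold change above 0, where 50.7% of all genes tested did, and their median was 0.32 against 0.00 for all genes. None passed an adjusted p below 0.05 in the edgeR test (0.00672% of 14889 genes did), while DESeq2 called 2 members, Gfap and Agt, and limma-voom called 1, Gfap. Shares of all genes called by DESeq2 and limma-voom were not computed. At an unadjusted p below 0.05, 17 members were higher in old mice and none was lower, where 2.81% of all genes were higher and 2.47% lower. Leaving out any 1 library gave 13 to 23 such members. These values are given below as measured, since none passed.

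Gfap (Ensembl ENSMUSG00000020932, minus strand of chromosome 11, 102778159 to 102791738 in GRCm39) had the highest value. It ranged from 42.8 to 91.1 CPM in the 10 young DAT;NuTRAP libraries (median 64.5 CPM) and from 89.6 to 344 CPM in the 9 old ones (median 142 CPM). The groups overlapped through 1 old library, and the other 8 of the 9 lay above every young one. The log2 fold change was 1.22 ± 0.23 (SE, adjusted p = 0.228), with a 95% interval of 0.73 to 1.71. It was 1.23 ± 0.56 in first-batch libraries (adjusted p = 0.478) and 1.22 ± 0.12 in second-batch libraries, where it passed (adjusted p = 4.31e-06). Old female 1, at 344 CPM, stood apart. Without it the value was 0.95 and passed (adjusted p = 0.0288).

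Secreted proteins followed. Agt, the precursor of angiotensin, ranged from 13.5 to 49.7 CPM in young DAT;NuTRAP libraries and from 29.8 to 66.7 CPM in old ones. Its log2 fold change was 0.55 ± 0.12 (adjusted p = 0.228), and 0.67 ± 0.16 and 0.47 ± 0.16 in the first and second batch. Serpina3n had a median of 6.98 CPM in young libraries (3.49 to 18.3) and 12.8 CPM in old ones (9.00 to 27.1), with overlap, and a log2 fold change of 1.01 ± 0.25 (adjusted p = 0.380). Itih3 (0.61 ± 0.16), Sparcl1 (0.30 ± 0.10) and Clu (0.14 ± 0.06) also had an unadjusted p below 0.05, and Cst3 did not (0.12 ± 0.07).

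Among the remaining members the values were smaller than that of Gfap. Aldh1l1, of the same role group as Gfap, had a median of 13.0 CPM in young libraries (8.66 to 22.7) and 19.6 CPM in old ones (14.2 to 44.5). Its log2 fold change was 0.48 ± 0.18 in the first and 0.91 ± 0.26 in the second batch, and its unadjusted p over both was below 0.05. Etnppl had medians of 16.4 CPM (9.21 to 32.4) and 32.5 CPM (18.2 to 37.5). Among the membrane proteins Hepacam (0.52 ± 0.18), Slc4a4 (0.47 ± 0.14), Mlc1 (0.47 ± 0.14) and Atp1b2 (0.23 ± 0.10) had an unadjusted p below 0.05, and Hepacam was at 0.34 without old female 2. The same held for Etnppl (0.69 ± 0.20), Slc1a3 (0.49 ± 0.22), Slc6a9 (0.33 ± 0.13), Acsbg1 (0.47 ± 0.14), the neurotensin receptor Ntsr2 (0.31 ± 0.15) and Ndrg2 (0.30 ± 0.11). Sox9 lay nearest to 0 at 0.02 ± 0.33, with Slc7a11 at 0.14 ± 0.28 and Fabp7 at 0.19 ± 0.46, all members with wide errors. Raw counts per DAT;NuTRAP library ran from 14 to 364 for Sox9, from 66 to 422 for Slc7a11 and from 0 to 249 for Fabp7.

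**Figure D2:**
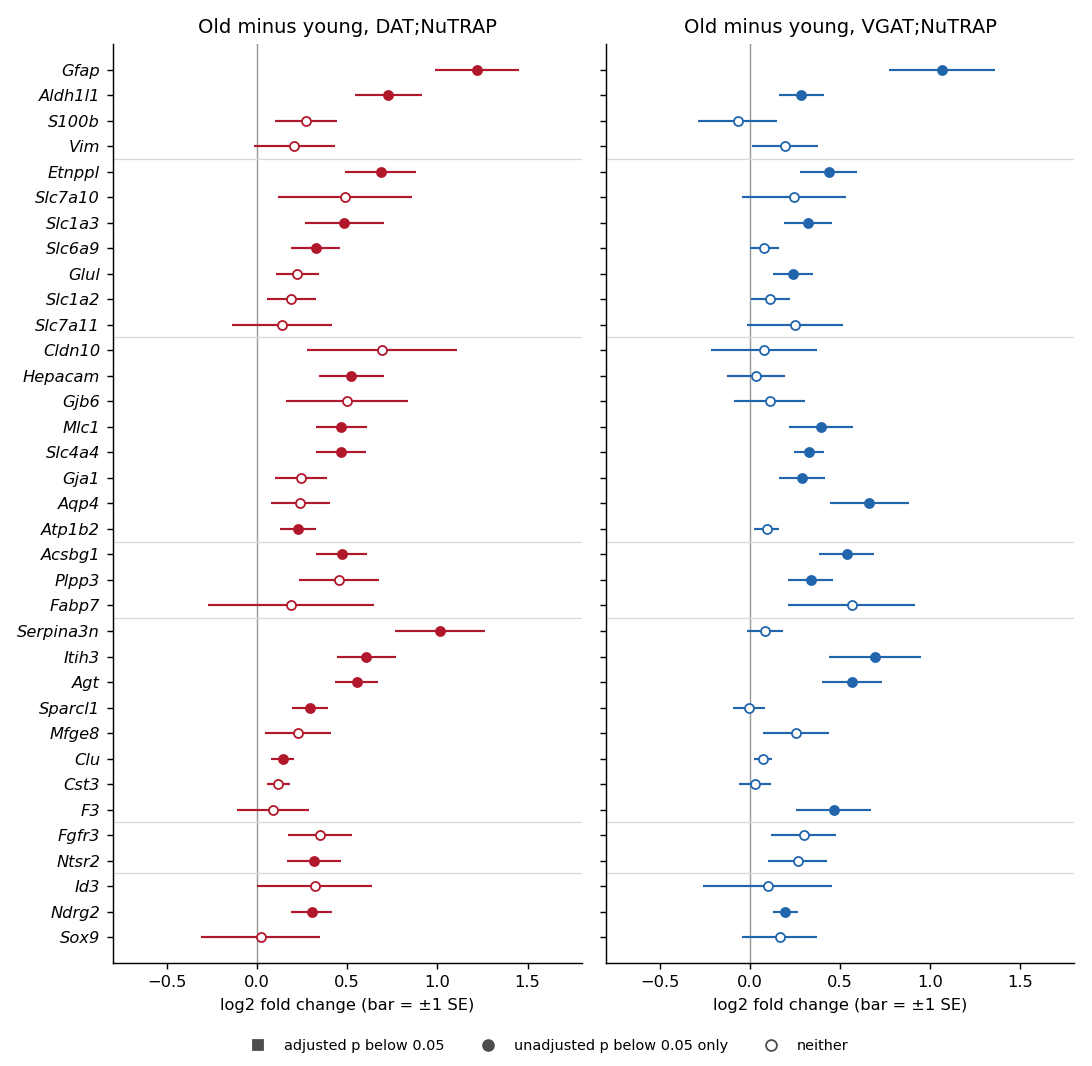
Log2 fold change of old over young mice for the 35 genes in DAT;NuTRAP (left) and VGAT;NuTRAP (right), with bars of 1 SE and rows grouped by role. Filled points have an unadjusted p below 0.05 and none has an adjusted p below 0.05; Gfap leads both panels, at 1.22 and 1.07, while Serpina3n is at 1.01 on the left and 0.08 on the right.

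In VGAT;NuTRAP 33 of 35 members lay above 0 (49.5% of all genes did), with a median of 0.25. None passed an adjusted p below 0.05 in edgeR, where 0.0256% of 15607 genes did, and neither DESeq2 nor limma-voom called any. At an unadjusted p below 0.05, 15 members were higher and none was lower, beside 3.04% and 2.95% of all genes, and the groups overlapped for every member (0.00641% of all genes did not overlap on the higher and 0.0128% on the lower side). The count rested partly on single libraries, falling to 9 without old male 2 and to 9 without young male 2, and the median fell to 0.15 without old male 2. S100b (-0.07 ± 0.22) and Sparcl1 (-0.01 ± 0.09) were the members below 0.

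Gfap was again the highest, from 12.6 to 45.6 CPM in the 10 young libraries (median 27.1 CPM) and from 27.2 to 84.3 CPM in the 8 old ones (median 48.2 CPM). The groups overlapped, and 5 of the 8 old libraries lay above every young one. Its log2 fold change was 1.07 ± 0.29 (adjusted p = 0.540), and 1.08 ± 0.57 and 1.06 ± 0.35 within the first and second batch. Slc4a4, which carries sodium and bicarbonate, had the smallest p of the members (0.33 ± 0.08, adjusted p = 0.424), from 22.1 to 35.4 CPM in young libraries and 26.0 to 49.5 CPM in old ones.

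Acsbg1 ranged from 8.51 to 23.2 CPM in young VGAT;NuTRAP libraries and from 10.1 to 27.3 CPM in old ones, with overlap and a log2 fold change of 0.54 ± 0.15. Agt gave 0.57 ± 0.17, Aqp4 0.66 ± 0.22, Itih3 0.70 ± 0.25 and Etnppl 0.44 ± 0.16. The lipid phosphatase Plpp3 (0.34 ± 0.13), Slc1a3 (0.32 ± 0.14), Gja1 (0.29 ± 0.13), Aldh1l1 (0.28 ± 0.12), Glul (0.24 ± 0.11), Ndrg2 (0.20 ± 0.07), Mlc1 (0.40 ± 0.18) and F3 (0.47 ± 0.21) completed the members with an unadjusted p below 0.05. Without old male 2 the values were 0.25 for F3, 0.23 for Mlc1, 0.17 for Gja1, 0.15 for Glul and 0.13 for Ndrg2. F3 and Slc1a3 turned to -0.072 and -0.039 in first-batch libraries, where 1 of the 2 old mice was the mouse of 24 months. Among mice of 9 and 21 months only, F3 was at -0.26. All young mice of that fit were first batch, and of the old mice only old male 1 was. With batch as a term, its age value therefore rested on that 1 old mouse.

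**Figure D3:**
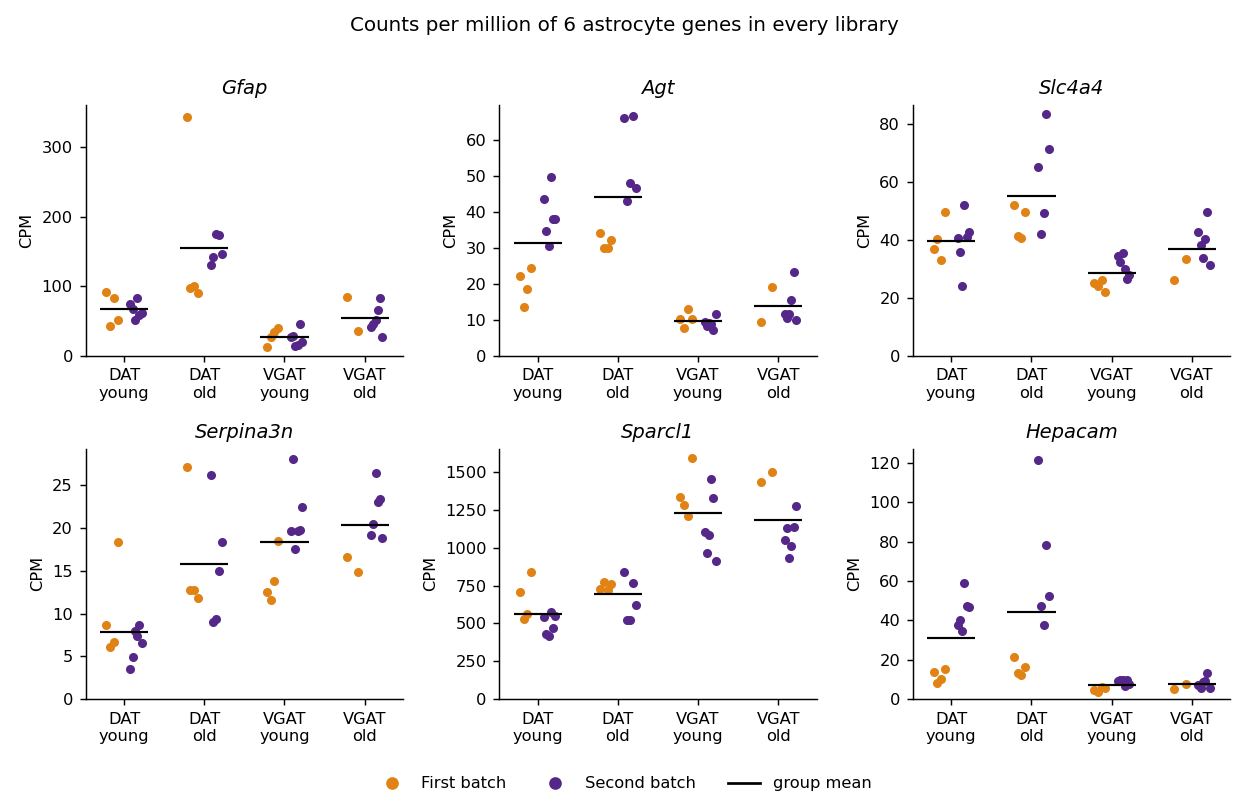
CPM of Gfap, Agt, Slc4a4, Serpina3n, Sparcl1 and Hepacam in each of the 37 libraries, split by line and age, with orange points for the first and purple points for the second batch and a black line at the group mean. Old DAT;NuTRAP Gfap includes 1 library at 344 CPM, Sparcl1 is higher in every VGAT;NuTRAP library, and Hepacam in DAT;NuTRAP separates by batch.

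The age differences of the lines were then set against each other in 1 model of all 37 libraries (interaction, VGAT;NuTRAP minus DAT;NuTRAP). No member passed in edgeR, DESeq2 or limma-voom, and 0% of 16898 genes passed in edgeR. At an unadjusted p below 0.05 there were 2 members, both on the lower side, where 1.49% of all genes were (1.27% on the higher side). Serpina3n gave -0.86 ± 0.32, with a 95% interval of -1.50 to -0.22, and Sparcl1 -0.31 ± 0.14. In VGAT;NuTRAP, Serpina3n had a median of 19.1 CPM in young libraries (11.6 to 28.1) and 19.8 CPM in old ones (14.9 to 26.4), at the level that the higher old DAT;NuTRAP libraries reached. The interaction for Gfap was -0.17 ± 0.36, with a 95% interval of -0.91 to 0.57. Of the 35 values 29 lay below 0, with a median of -0.14, while 50.4% of all genes lay above 0.

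Markers of other cells differed in direction with age. In DAT;NuTRAP 13 of 14 microglia markers were above 0 (median 0.67) and 5 had an unadjusted p below 0.05, among them the complement genes C1qb (1.18 ± 0.29) and C1qa (1.04 ± 0.32). All 12 oligodendrocyte markers (median 0.27) and all 10 endothelial markers (median 0.32) were above 0, and 2 of each had an unadjusted p below 0.05. Of 6 mural and fibroblast markers 5 were below 0 (median -0.26), and oligodendrocyte precursor markers were divided, with 3 above and 2 below. In VGAT;NuTRAP 11 of 14 microglia markers (median 0.36), 11 of 12 oligodendrocyte markers (median 0.35) and 8 of 10 endothelial markers (median 0.16) were above 0, while 3 of 5 mural and fibroblast markers were below (median -0.33). The oligodendrocyte value joined opposite directions, since none of the 12 was above 0 in VGAT;NuTRAP females (median -0.20) and 11 were in males (median 0.92). The dopamine labels had a median of -0.02 in DAT;NuTRAP and the GABA labels of -0.05 in VGAT;NuTRAP, and the general neuron markers of -0.03 and -0.02. The summed level of the oligodendrocyte markers was 539 to 2368 CPM in young and 638 to 2469 CPM in old DAT;NuTRAP libraries, and that of the microglia markers 46.9 to 87.2 CPM and 57.6 to 158 CPM. Their part in the astrocyte values was not tested.

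A second list held 26 other astrocyte genes. In DAT;NuTRAP 25 were above 0 (median 0.36) and 14 had an unadjusted p below 0.05, led by the lipid carrier Apoe (0.75 ± 0.15, adjusted p = 0.228) and the metallothionein Mt1 (0.72 ± 0.16). In VGAT;NuTRAP 24 were above 0 (median 0.37) and 13 had an unadjusted p below 0.05, with Gpr37l1 (0.48 ± 0.13), Slc25a18 (0.58 ± 0.16) and Apoe (0.60 ± 0.15) first. A panel of 28 genes of reactive astrocytes was sparser, with 20 tested in DAT;NuTRAP and 19 in VGAT;NuTRAP. Of these, 14 were above 0 and 6 below in DAT;NuTRAP (median 0.12), and 13 and 6 in VGAT;NuTRAP (median 0.08). Osmr, the oncostatin M receptor, was its single gene with an unadjusted p below 0.05 (1.37 ± 0.47 in VGAT;NuTRAP). Neither list had a member with an adjusted p below 0.05 in edgeR for age over both sexes; the other tools were not run on them. Within sexes Apoe alone passed, in VGAT;NuTRAP females (0.50 ± 0.08, adjusted p = 0.0127).

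At an unadjusted p below 0.05 (edgeR), 2.81% of all genes were higher with age in DAT;NuTRAP and 3.04% in VGAT;NuTRAP. The share of all genes higher in both lines was not computed. Of the 35 members 10 were higher in old mice of both lines at that p. The promoter windows of 4 of them, Gfap, Agt, Acsbg1 and Slc1a3, held the motif TTCNNNGAA and are shown, and those of the other 6 (Aldh1l1, Etnppl, Itih3, Mlc1, Ndrg2 and Slc4a4) did not hold it. The windows shown come from RefSeq and run from 250 bases before to 50 bases after the gene start in build GRCm38.p6, an older build than GRCm39 of the counts, all on the minus strand and 5′ to 3′. Capitals mark TTCNNNGAA, the palindrome bound by STAT factors, which act in the cytokine response of astrocytes and whose binding was not measured here.
Gfap (chr11:102897151-102897450): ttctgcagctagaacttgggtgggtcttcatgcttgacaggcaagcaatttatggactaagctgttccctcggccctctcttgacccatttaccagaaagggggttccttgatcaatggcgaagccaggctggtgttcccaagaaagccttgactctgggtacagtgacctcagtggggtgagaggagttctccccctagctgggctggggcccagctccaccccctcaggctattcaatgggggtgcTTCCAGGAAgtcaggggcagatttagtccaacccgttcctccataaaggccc
Agt (chr8:124569657-124569956): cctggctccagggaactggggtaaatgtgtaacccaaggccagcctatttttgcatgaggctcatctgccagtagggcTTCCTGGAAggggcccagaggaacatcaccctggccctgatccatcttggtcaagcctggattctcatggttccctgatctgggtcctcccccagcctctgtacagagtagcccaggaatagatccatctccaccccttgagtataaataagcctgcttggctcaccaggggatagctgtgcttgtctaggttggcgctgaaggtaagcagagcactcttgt
Acsbg1 (chr9:54661836-54662135): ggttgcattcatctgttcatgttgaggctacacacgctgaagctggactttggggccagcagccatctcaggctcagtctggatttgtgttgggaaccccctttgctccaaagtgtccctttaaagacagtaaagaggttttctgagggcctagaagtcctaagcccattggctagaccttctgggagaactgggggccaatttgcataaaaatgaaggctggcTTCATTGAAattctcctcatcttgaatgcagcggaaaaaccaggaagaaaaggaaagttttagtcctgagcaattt
Slc1a3 (chr15:8710758-8711057): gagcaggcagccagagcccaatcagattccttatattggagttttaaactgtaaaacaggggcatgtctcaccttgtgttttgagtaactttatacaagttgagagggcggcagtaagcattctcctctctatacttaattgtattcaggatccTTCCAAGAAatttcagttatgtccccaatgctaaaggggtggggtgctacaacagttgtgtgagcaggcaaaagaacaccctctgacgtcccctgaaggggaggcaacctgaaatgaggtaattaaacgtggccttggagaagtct

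The motif began at position -2 from the start in Gfap, -172 in Agt, -26 in Acsbg1 and -96 in Slc1a3. Over the 30 members with an entry in the table (38 promoters), searched on both strands, TTCNNNGAA lay in 6 promoters, those of Ntsr2 and Slc7a11 besides, which is 15.8%, and in 8.30% of all 32851 promoters. The NFI palindrome lay in none of the 38 and in 0.807% of all, and the SOX core ACAAAG in 10.5% and 18.7%. Slc7a11 held both the first and the last. Serpina3n, whose age values are given above, had no TTCNNNGAA in this window.

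Age was also compared within each sex, where groups are small. In DAT;NuTRAP females 33 members were above 0 (median 0.48), where 49.1% of all genes were. Of these 19 had an unadjusted p below 0.05 (12 without old female 1 and 11 without old female 2), beside 2.09% of all genes on that side and 1.96% on the other, where no member lay. None passed in edgeR, against 3 in DESeq2 and 1 in limma-voom. In DAT;NuTRAP males 34 were above 0 (median 0.27), where 51.9% of all genes were. Of these 9 had an unadjusted p below 0.05 (5 without old male 4 and 18 without young male 2), beside 3.01% of all genes on that side and 2.49% on the other. None passed in edgeR or limma-voom and 1 in DESeq2. For both sexes the share of all genes called was computed for edgeR only. Groups that did not overlap made up 0.620% of all genes in females and 0.336% in males on the higher side, and 0.404% and 0.431% on the lower side. On the higher side lay 7 members in females (Gfap, Etnppl, Acsbg1, Serpina3n, Slc4a4, Mlc1 and Cldn10) and 1 in males (Gfap), and none lay on the lower side. Gfap was at 1.58 ± 0.27 in females and 0.88 ± 0.16 in males. The interaction of age and sex called no member of the line in edgeR, the one tool run for it (0% of 16560 genes passed). Etnppl (-0.92 ± 0.34, male minus female) and Aqp4 (-0.71 ± 0.29) had an unadjusted p below 0.05, where 1.82% of all genes did on that side.

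In VGAT;NuTRAP females 29 members were above 0 (median 0.14), where 49.1% of all genes were. Of these 6 had an unadjusted p below 0.05 (3 without old female 5 and 12 without young female 3), beside 2.81% of all genes on that side and 2.78% on the other. None passed in edgeR, where 0.0320% of all genes did, and DESeq2 and limma-voom called 1 each, without a share of all genes computed. In VGAT;NuTRAP males 32 were above 0 (median 0.38), where 50.9% of all genes were. Of these 9 had an unadjusted p below 0.05, beside 2.73% of all genes on that side and 2.39% on the other, and none was called by any of the 3 tools (0.0252% of all genes passed on the higher and 0.00630% on the lower side in edgeR). That male count was 2 without old male 2, 17 without old male 3 and 4 without young male 2, and the median without old male 2 was 0.023. Gfap was 1.33 ± 0.30 in females, the 1 member without overlap there (0.231% of all genes higher, 0.237% lower), and 0.71 ± 0.65 in males, where Slc4a4 and Cldn10 did not overlap (2.26% higher, 2.37% lower). For the interaction of age and sex 4 members, Mfge8, Slc4a4, Ndrg2 and F3, had an unadjusted p below 0.05, all higher in males, where 2.61% of all genes did, and none passed in edgeR. Markers of other cells differed by sex in the same libraries. For that interaction 7 of 12 oligodendrocyte markers had an unadjusted p below 0.05, all higher in males (median 1.06). Their summed level was 298, 737 and 1058 CPM in the 3 old males, 319 to 542 CPM in young males, 281 to 445 CPM in old females and 356 to 473 CPM in young females. All 5 oligodendrocyte precursor markers were above 0 in males (median 0.76) and below 0 in females (median -0.24), while 10 of 14 microglia markers were below 0 in males (median -0.34) and 13 were above 0 in females (median 0.58). Their part in the astrocyte values was not tested.

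The batches named in the labels were compared within each line. In DAT;NuTRAP 17 members rose and 1 fell in the second batch at an adjusted p below 0.05, beside 16.8% and 17.5% of all 14889 genes, and the median was 0.51 with 31 members above 0, where 49.6% of all genes were. Hepacam ranged from 7.95 to 21.2 CPM in the 8 first-batch libraries and from 34.9 to 121 CPM in the 11 second-batch ones, without overlap, a log2 difference of 2.03 ± 0.20 (adjusted p = 9.45e-09, edgeR). Slc1a2 (288 to 594 CPM, then 612 to 1278 CPM), Cst3 (335 to 522 CPM, then 558 to 750 CPM) and Gja1 (18.3 to 32.9 CPM, then 33.0 to 70.9 CPM) were also parted, where 4.27% of all genes were on that side and 5.27% on the other. Their log2 differences were 0.99 ± 0.14, 0.64 ± 0.07 and 0.91 ± 0.15.

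Among the other members Sox9 (1.87 ± 0.36), S100b (1.23 ± 0.18), Mfge8 (1.21 ± 0.19), Itih3 (1.17 ± 0.17), Ntsr2 (1.13 ± 0.16), Agt (0.91 ± 0.12) and Glul (0.69 ± 0.12) rose most in the second batch. Gfap, the highest member by age, gave -0.00 ± 0.23 by batch, with 42.8 to 344 CPM in the first and 50.7 to 175 CPM in the second. Sparcl1 fell by 0.28 on the log2 scale (adjusted p = 0.0321), although DESeq2 did not call it (adjusted p = 0.0592). In the same libraries 10 of 12 oligodendrocyte markers rose (median 1.52, summed level 539 to 809 CPM in the first and 1183 to 2469 CPM in the second batch), as did 6 of 14 microglia markers (median 1.25). Their part in the astrocyte values was not tested.

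In VGAT;NuTRAP the members were divided. Of the 35, 6 rose and 5 fell in the second batch, beside 15.0% and 13.9% of all genes, with a median of -0.05 and 15 members above 0, where 49.4% of all genes were. Slc1a2 ranged from 94.2 to 162 CPM in the 6 first-batch libraries and from 214 to 359 CPM in the 12 second-batch ones (1.07 ± 0.12, adjusted p = 5.27e-06), and Sox9 (1.40 ± 0.24) and Atp1b2 (0.59 ± 0.07) were parted in the same way, where 3.88% of all genes were (2.56% on the lower side, with no member). Hepacam (0.67 ± 0.18), Serpina3n (0.55 ± 0.11) and Slc4a4 (0.38 ± 0.09) rose as well. S100b (-0.74 ± 0.22), Etnppl (-0.61 ± 0.16), Acsbg1 (-0.50 ± 0.16), Ndrg2 (-0.38 ± 0.07) and Sparcl1 (-0.31 ± 0.09) fell, Acsbg1 only with the count filter (adjusted p = 0.0609 without it).

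**Figure D4:**
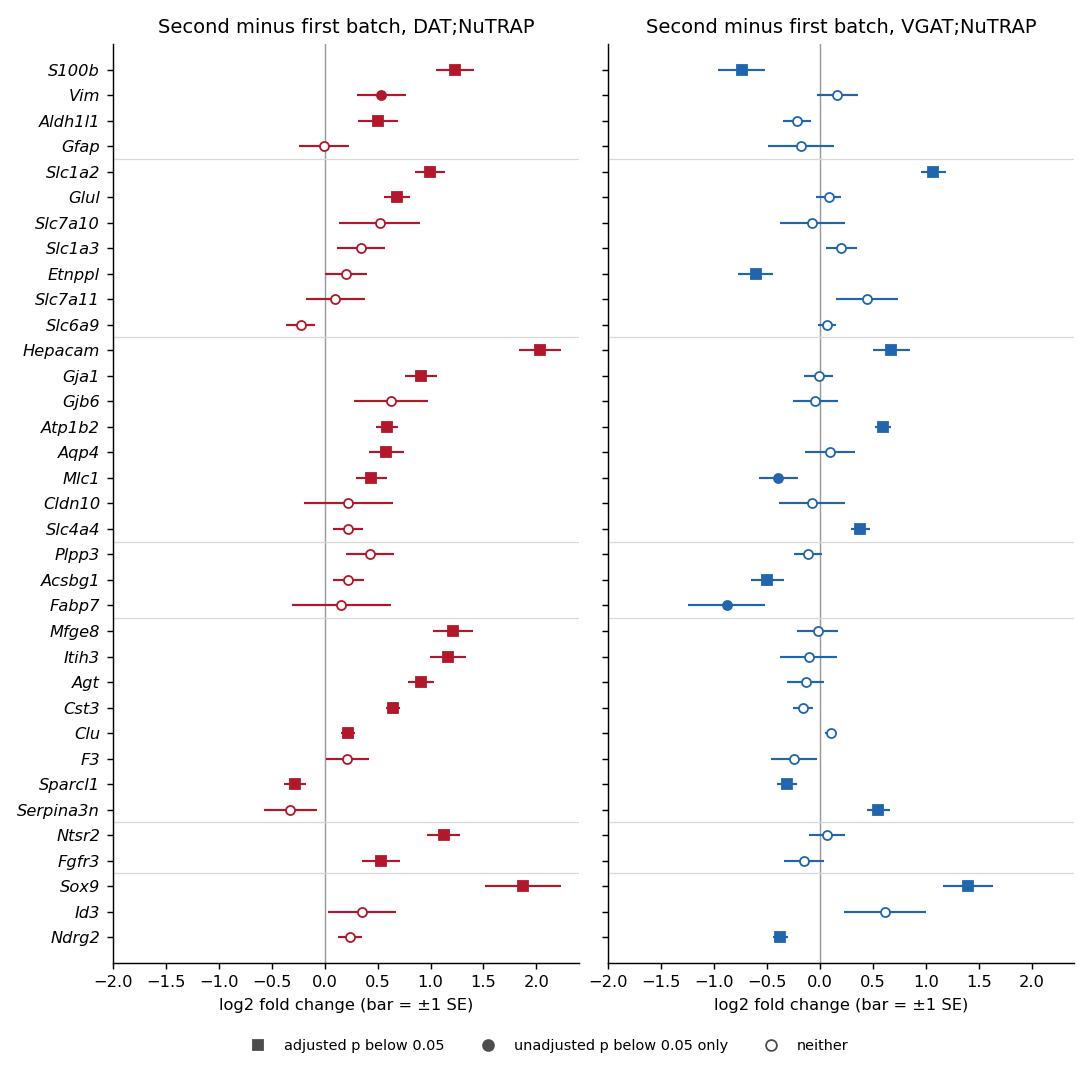
Log2 difference of second- over first-batch libraries for the 35 genes in DAT;NuTRAP (left) and VGAT;NuTRAP (right), with bars of 1 SE; squares passed an adjusted p below 0.05. On the left 17 members rose and 1 fell, on the right 6 rose and 5 fell, and S100b lies at 1.23 on the left and -0.74 on the right.

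The batch difference itself was compared between the lines in an interaction test that was added after the data were seen. It called 14 members, all lower in VGAT;NuTRAP than in DAT;NuTRAP, where 12.8% of all genes were called on that side and 16.1% on the other. S100b gave the largest of these differences, -1.96 ± 0.29 (adjusted p = 2.46e-06, edgeR), followed by Hepacam (-1.37 ± 0.28), Itih3 (-1.25 ± 0.31) and Mfge8 (-1.22 ± 0.27). Gfap was not among the 14 (-0.17 ± 0.38). Whether the first batch of one line was prepared together with the first batch of the other is not stated in the labels.

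Single libraries carried many of the extremes. Among the DAT;NuTRAP libraries old male 4 was highest for 14 of the 35 members, old female 2 for 10 and old female 1 for 5, while young female 2 was lowest for 15. Among the VGAT;NuTRAP libraries old male 2 was highest for 16 members and young female 2 lowest for 9. The oligodendrocyte markers summed to 2323, 2469 and 809 CPM in those first 3 DAT;NuTRAP libraries and to 1058 CPM in VGAT;NuTRAP old male 2, the highest sum of that line, and their part was not tested.

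**Figure D5:**
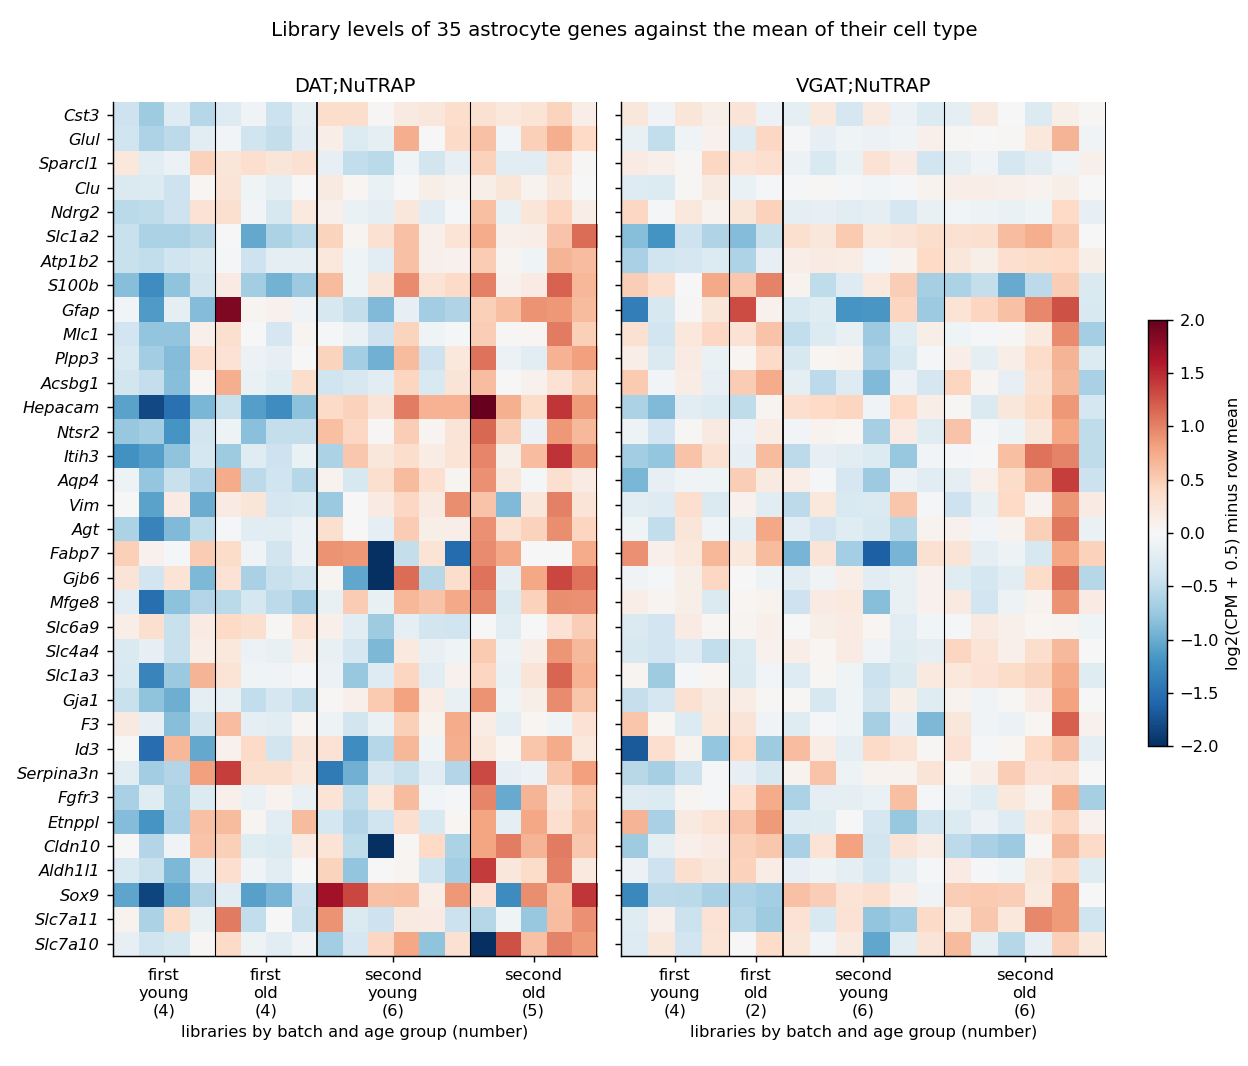
Every library of DAT;NuTRAP (left) and VGAT;NuTRAP (right) in columns, ordered by batch and age, and the 35 genes in rows from the highest to the lowest RPKM in DAT;NuTRAP. Colour is log2(CPM + 0.5) minus the mean of the row in that line, with the scale ending at 2 and -2; the second-batch columns are redder on the left for most rows, and VGAT;NuTRAP old male 2 is the highest column in 16 rows on the right.

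Some members share bases with another counted gene on the opposite strand, and whether the counting used strand is not given in the sources used here. Of the exon bases of Slc7a10, 50.2% overlap Lrp3, and of those of Agt 29.7% overlap Cog2, of Acsbg1 28.6% overlap Idh3a, and of Slc6a9 23.5% overlap Ccdc24. Serpina3n belongs to a cluster of closely related genes, so how its reads were shared with them is uncertain.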

How the data were processed

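Ribosome-bound RNA from GFP pulldowns of 37 mice was sequenced from directional poly-A libraries. Alignment by the authors used STAR 2.7.10b and mm39 (GRCm39), and reads were counted per gene with featureCounts, whose version and strand setting are not given in the sources used here. The deposited tables hold raw counts for 57180 genes, as they stood ahead of the authors' own filtering and batch correction. That filtering took out weakly counted genes and genes specific to astrocytes or microglia.

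Members, gene lists and tests were chosen with earlier results of these data known. Every member could be named, and from other lists up to 4 genes with the smallest p. For levels, libraries were scaled together by TMM in edgeR 4.0.16 (R 4.3.3), and levels are CPM, or RPKM on union exon length. Each edgeR test computed its own TMM factors from the libraries and genes it used. Genes passing filterByExpr (minimum count 10) were fitted with a robust quasi-likelihood model. Age was tested with batch as a term, batch with age, and the lines with both. p-values were adjusted by Benjamini-Hochberg over all genes tested, with a threshold of 0.05. Scripts were tested on simulated data. Alternatives were DESeq2 1.42.0, limma-voom 3.58.1, RLE factors, other count filters, other covariates, single batches or ages, a replicate block and leaving out libraries. All 70 pairs of libraries within a group were checked for duplicates (lowest chi-square per degree of freedom 5.22). The result of 1 microglia marker is not reported here.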

Additional observations from a re-analysis of the deposited data

Results flagged for a closer look

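Of 140 groups of libraries checked, 8 held a library whose level lay apart from the others of its group, and about 1 in 20 groups is marked in this way by chance. Gfap reached 344 CPM in DAT;NuTRAP old female 1, against 175 CPM in the next old library. In DAT;NuTRAP young female 5, Cldn10 was at 0 CPM against 3.61 CPM in the next young library, young male 5. Fabp7 was not flagged but was also at 0 CPM in young female 5, a library that detected 14798 genes. Slc7a10 was at 0.356 CPM in DAT;NuTRAP old female 2 and at 0.418 CPM in VGAT;NuTRAP young male 2, both far below their groups. Glul was at 134 CPM in VGAT;NuTRAP young female 2, below 168 CPM in the next library. VGAT;NuTRAP old male 2 accounted for 3 of the 8, with Gja1 at 22.2 CPM (next 14.0 CPM), Mfge8 at 9.27 CPM (next 5.41 CPM) and F3 at 13.3 CPM (next 6.68 CPM).

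The difference between batches was itself different in the lines for 14 members (edgeR interaction, VGAT;NuTRAP minus DAT;NuTRAP, log2, each with an adjusted p below 0.05). The values were -1.96 for S100b, -1.37 for Hepacam, -1.25 for Itih3, -1.22 for Mfge8, -1.05 for Ntsr2, -1.03 for Agt and -0.90 for Gja1. For the others they were -0.82 for Mlc1, -0.81 for Etnppl, -0.79 for Cst3, -0.75 for Aldh1l1, -0.71 for Acsbg1, -0.61 for Ndrg2 and -0.59 for Glul.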

How the results depend on the processing

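Of the summary values recomputed under alternatives other than leaving out 1 library, 205 stayed within 1.5 times or the spread between libraries and 23 did not. That spread was 0.36 on the log2 scale in DAT;NuTRAP, above the median age value of 0.32 there. That median could thus shrink almost to 0 and still be counted as staying. Of the values of single members, 931 kept direction and side of the threshold, 13 lost a call, 5 gained one and 4 reversed. The age values among them had no call to lose. For age in DAT;NuTRAP, members with an adjusted p below 0.05 numbered 2 with DESeq2, 1 with limma-voom, 1 in second-batch libraries alone and 1 with the replicate block, against 0. Members higher at an unadjusted p below 0.05 numbered 7 in first-batch libraries alone, against 17. For VGAT;NuTRAP this count was 3 in first-batch libraries alone, which held 2 old mice, and 7 with the replicate block, against 15. For age by cell type it was 1 in second-batch libraries, against 0. The median difference between the lines was -1.02 in first-batch libraries alone, where S100b turned to 0.31. Among age values in VGAT;NuTRAP, F3 turned to -0.072 and Slc1a3 to -0.039 in first-batch libraries, and F3 to -0.26 among mice of 9 and 21 months. In that last fit all young mice were first batch, with old male 1 the only old mouse of that batch. Within sexes, members with an adjusted p below 0.05, against 0, numbered 8, 3, 2 and 5 without a count filter (DAT;NuTRAP females and males, VGAT;NuTRAP females and males), 3, 1 and 1 with DESeq2 (the first 3 of these) and 1 and 1 with limma-voom (females of each line). The unadjusted count was 6 with the replicate block in DAT;NuTRAP females, and 15, 14 and 3 in DAT;NuTRAP males without a filter, with limma-voom and without a batch term. Shares of all genes called were computed for the main edgeR fits only, so the counts under alternatives stand without them. The cause of these shifts was not tested. Same-numbered young and old libraries of a sex mostly did not deviate together. Correlations ran from -0.21 to 0.21 over 9 DAT;NuTRAP pairs and from -0.10 to 0.23 over 8 VGAT;NuTRAP pairs, with 1 of each above 0.1. So few pairs cannot exclude that some libraries were paired. Beyond the counts given above, the replicate block moved no other count by over 1.5 times.

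Leaving out 1 library at a time gave 13 to 23 members higher at an unadjusted p below 0.05 in DAT;NuTRAP (median log2 0.26 to 0.37, 0 to 1 with an adjusted p below 0.05) and 9 to 17 in VGAT;NuTRAP (0.15 to 0.29, 0). The ranges were 11 to 22 in DAT;NuTRAP females (0.35 to 0.61, 0 to 2), 5 to 18 in DAT;NuTRAP males (0.20 to 0.48, 0 to 1), 3 to 12 in VGAT;NuTRAP females (0.10 to 0.17, 0) and 2 to 17 in VGAT;NuTRAP males (0.023 to 0.60, 0). Without the 2 libraries rich in Rn18s-rs5, an alternative chosen after the data were seen, 16 members were higher with age in DAT;NuTRAP at an unadjusted p below 0.05 (median 0.35), 33 differed between the lines and 18 between DAT;NuTRAP batches. Shares of all genes were not computed for this alternative. Members near 1 CPM in VGAT;NuTRAP, such as Slc7a10 (0.418 to 2.41 CPM) and Sox9 (0.464 to 3.74 CPM), rest on few counts. A small difference there may not be detectable at this depth, although both were called between the lines.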
